A study of Homo sapiens with 9 samples.

Results

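The genes described here make cholesterol, move it within the cell, or set the activity of the sterol regulatory element binding proteins (SREBPs). They were chosen as a list of 32 symbols, and each was read from the probe set with the highest mean over 9 arrays. Of the 32 genes, 30 had a probe set with a single gene symbol, among 19775 genes tested in all. FDFT1 and CYP51A1 had no such probe set and were not analysed here. The cells were HepG2, an established line from a human hepatoma that still makes many hepatocyte proteins. They had been given 100 nM GW7647, a synthetic agonist of the fatty acid receptor PPARα, for 6 h or for 24 h, or the DMSO vehicle. Each of the 3 groups had 3 arrays. All cells, controls included, grew in medium with fetal bovine serum, glutamine and antibiotics and without phenol red. Both times were set against the same vehicle arrays, for which no time of harvest is given in the sources used here. Exposure to the agonist and time in culture therefore cannot be told apart. The labels do not say whether replicates came from separate cultures, so the p-values reflect the spread among these arrays alone, which may be technical. The study surveyed promoters bound by PPARα, and its arrays ask which transcripts differ after a short and a longer exposure.

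Cells build cholesterol from acetyl-CoA through mevalonate, isoprenoid diphosphates, squalene and lanosterol. The genes for these steps are switched on together by SREBPs. These transcription factors are held in the endoplasmic reticulum by SCAP and the INSIG proteins while sterols are plentiful, and are cut free in the Golgi when sterols run low. The liver is a major site of this synthesis, and hepatocytes also take up, store and excrete cholesterol.

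Signals are log2 values after robust multi-array averaging (RMA), and a change is a difference between group means on that log2 scale, ± its standard error from the limma fit. A gene passed when its p, adjusted over all 19775 genes, was under 0.05. Arrays correlated across genes at r = 0.997 to 0.999 within a group (9 pairs) and at 0.995 to 0.998 between groups (27 pairs); genes are not independent replicates. All 7 measured hepatocyte and hepatoma markers, ALB and AFP among them, had mean signals of 9.14 to 14.77, above the median probe set of every array (5.61 to 5.68). Of these 7, 2 fell at 24 h (TTR by 0.55 and FGB by 0.67 log2 units), which is 28.6% against 2.80% of all genes. At 6 h 0 passed, but all 7 changes were negative. Their linear sum was 91342 to 93898 in vehicle, 88846 to 90577 at 6 h and 85669 to 88824 at 24 h. It fell in steps, with no overlap between the groups. Of 15 measured markers of other liver cells, 1 passed at 6 h (6.67% against 3.54% of all genes). It was CD14, which fell by 0.29 (adjusted p = 0.0159). That call was lost without vehicle replicate 3 or any single 6 h array (up to 0.0693). At 24 h 0 passed by limma (2 at an unadjusted p under 0.05, against 4198 of 19775 genes). From 6 h to 24 h 1 (CD14) rose, which is 6.67% against 13.8% of all genes. The mean signals of these 15 ran from 3.61 to 11.11, and 8 of them also lay above the median probe set. A signal above the median therefore does not separate the 2 marker lists. The linear sum of these 15 was 3320 to 3831 in vehicle, 3301 to 3432 at 6 h and 3783 to 3946 at 24 h. The part of either sum in the results below was not tested. The 3′ minus 5′ signal of the actin control probes, a sign of RNA quality, was 0.15 to 0.36 in vehicle, 0.27 to 0.30 at 6 h and 0.25 to 0.40 at 24 h. In bulk RNA, fewer cells of a type and less RNA per cell cannot be told apart. PLIN2, the lipid droplet coat protein that PPARα is known to induce, rose by 1.04 ± 0.06 log2 units at 6 h and by 1.49 ± 0.06 at 24 h (0.48 and 0.74 as a mean of its probe sets).

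After 6 h of GW7647, 7 of the 30 genes rose, 1 fell and 22 did not pass. That is 26.7% of the members, against 3.54% of all genes. The 7 rises are 23.3% of members against 1.64% of all genes, and the 1 fall is 3.33% against 1.91%. All genes here include those of low signal. When only the 9887 genes above the median signal were fitted, 29 members remained. Of these, 9 passed at 6 h, against 1206 of the 9887 genes. HMGCS1, IDI1, MVD, MSMO1, SC5D and NSDHL, which are enzymes of synthesis, and the sterol carrier STARD4 were 1.26-fold to 1.61-fold higher than in vehicle. INSIG2, which holds SREBPs back, was 1.30-fold lower. The median log2 change was 0.048 over the 30 genes, 0.14 over the 18 measured enzymes of synthesis and 0.0039 over all genes. Of these 18 enzymes, 16 had a positive change and 12 had all 3 arrays at 6 h above all 3 vehicle arrays, as had 10.5% of all genes. Over the 30 genes, 13 had arrays entirely above vehicle and 3 entirely below, against 10.5% and 10.3% of all genes (20.8% in either direction).

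**Figure D1:**
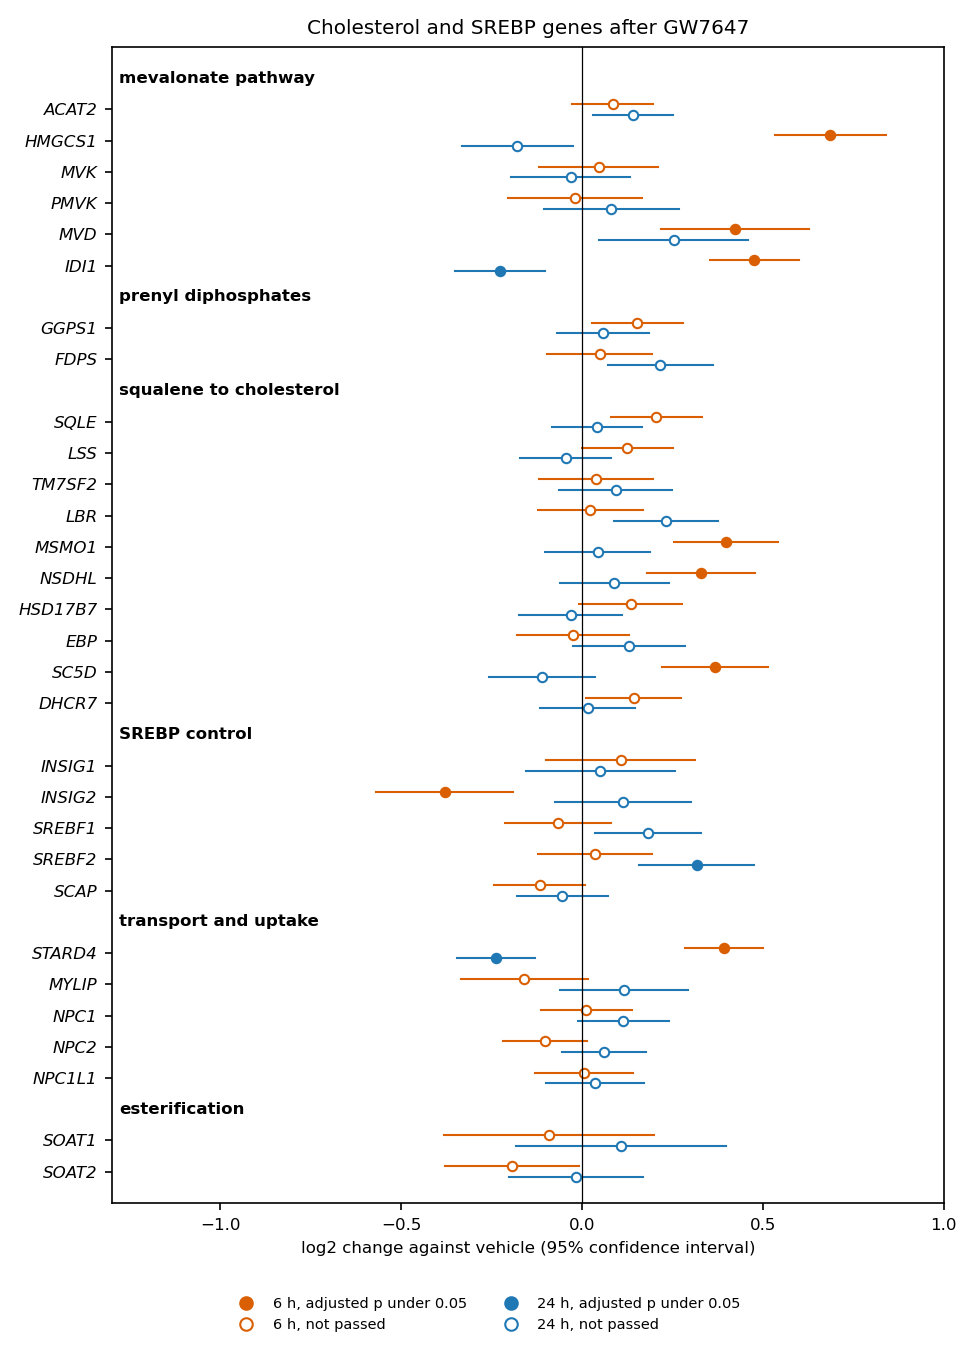
Log2 change against vehicle of the 30 measured genes after 6 h (orange) and 24 h (blue) of GW7647, grouped by role; bars are 95% confidence intervals of the limma fit with 3 arrays per group, and filled points passed at an adjusted p under 0.05. The 7 filled orange points on the right run from NSDHL (0.33) to HMGCS1 (0.69), and INSIG2 (-0.38) is the filled orange point on the left.

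HMGCS1 makes the substrate of the rate-limiting reductase of the mevalonate pathway. Its signal was 8.64, 8.49 and 8.68 on the vehicle arrays, 9.35, 9.32 and 9.19 at 6 h, and 8.35, 8.47 and 8.44 at 24 h. The 6 h arrays lay highest and did not overlap with either other group. HMGCS1 rose 1.61-fold at 6 h (95% confidence interval 1.45 to 1.79; log2 change 0.69 ± 0.07, adjusted p = 0.000423). A second HMGCS1 probe set changed by 0.45, with an adjusted p of 0.144 over all probe sets. At 24 h the change against vehicle was -0.18 ± 0.07 (adjusted p = 0.160).

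IDI1 turns isopentenyl diphosphate into its more reactive isomer. Its signal was 11.09, 11.13 and 11.15 in vehicle, 11.59, 11.62 and 11.59 at 6 h, and 10.88, 10.82 and 10.98 at 24 h. The 3 groups did not overlap, with 6 h highest and 24 h lowest. IDI1 rose 1.39-fold at 6 h (95% confidence interval 1.28 to 1.52; adjusted p = 0.00110) and fell 1.17-fold at 24 h (1.07 to 1.28; adjusted p = 0.0312). The reported IDI1 probe set is 1 of 4 and its name ends in _x_at, which marks probes that may match other genes. A second one rose by 0.49 at 6 h, while the other 2 changed by 0.026 and -0.038 at 6 h and by 0.39 and 0.32 at 24 h. As a mean of all 4, the change of IDI1 6 h against vehicle was 0.24 (adjusted p = 0.0434), and at 24 h it was 0.061 (0.607). The fall at 24 h passed with 24 h replicate 3 left out and not without any other single array (adjusted p up to 0.107).

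MVD, the decarboxylase that yields isopentenyl diphosphate, had signals of 7.22, 7.62 and 7.43 in vehicle, 7.84, 7.83 and 7.88 at 6 h, and 7.55, 7.71 and 7.78 at 24 h. The 6 h arrays lay above the others, and the vehicle arrays were the most spread (SD 0.20). MVD rose 1.34-fold at 6 h (95% confidence interval 1.16 to 1.55, adjusted p = 0.0341). It missed the threshold when vehicle replicate 1, vehicle replicate 3 or any single 6 h array was removed (up to 0.114). It also missed when the 24 h arrays were kept out of the fit (0.0624). The remaining enzymes of the mevalonate pathway did not pass at 6 h. The changes were 0.084 ± 0.050 for the thiolase ACAT2, 0.047 ± 0.075 for the kinase MVK and -0.019 ± 0.085 for PMVK, the second kinase. Of the enzymes that build longer isoprenoids, FDPS changed by 0.049 ± 0.066 and GGPS1 by 0.15 ± 0.06, and neither passed.

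Among the 10 measured enzymes from squalene to cholesterol, MSMO1, SC5D and NSDHL rose at 6 h and 7 did not pass. MSMO1, which oxidises methyl groups of the sterol ring, had signals of 11.46, 11.31 and 11.45 in vehicle, 11.78, 11.86 and 11.78 at 6 h, and 11.46, 11.53 and 11.36 at 24 h. The 6 h arrays stood above the rest, and the vehicle and 24 h arrays overlapped. MSMO1 rose 1.32-fold (95% confidence interval 1.19 to 1.46; adjusted p = 0.00816).

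NSDHL, a dehydrogenase that acts with MSMO1, had signals of 9.13, 9.39 and 9.30 in vehicle, 9.59, 9.59 and 9.63 at 6 h, and 9.35, 9.36 and 9.39 at 24 h. It was highest at 6 h, where the arrays did not overlap with the others. It rose 1.26-fold (95% confidence interval 1.13 to 1.39, adjusted p = 0.0244), and missed the threshold on removal of the same arrays as MVD (up to 0.0896). Like MVD, it also missed with the 24 h arrays kept out of the fit (0.0656).

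SC5D, a desaturase late in the pathway, had signals of 10.45, 10.40 and 10.46 in vehicle, 10.83, 10.86 and 10.73 at 6 h, and 10.21, 10.41 and 10.37 at 24 h. Here too the 6 h arrays stood apart. SC5D rose 1.29-fold (95% confidence interval 1.17 to 1.43; adjusted p = 0.0126), and did not pass without 6 h replicate 1 or 2 (up to 0.0707). A second probe set with a mean signal of 6.17 changed by -0.078, and the mean of both by 0.15 (adjusted p = 0.216).

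SQLE, the rate-controlling squalene epoxidase, did not pass at 6 h (0.21 ± 0.06, adjusted p = 0.0777). Its 3 arrays at 6 h (11.46, 11.47 and 11.49) lay above those of vehicle (11.29, 11.24 and 11.27), and its 4 probe sets changed by 0.21 to 0.56. With its probe sets averaged, with an intensity trend in the model, or among genes above the median signal, SQLE passed. The other 6 enzymes, namely LSS, TM7SF2, LBR, HSD17B7, EBP and DHCR7, had changes from -0.024 (EBP) to 0.14 (DHCR7) at 6 h.

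**Figure D2:**
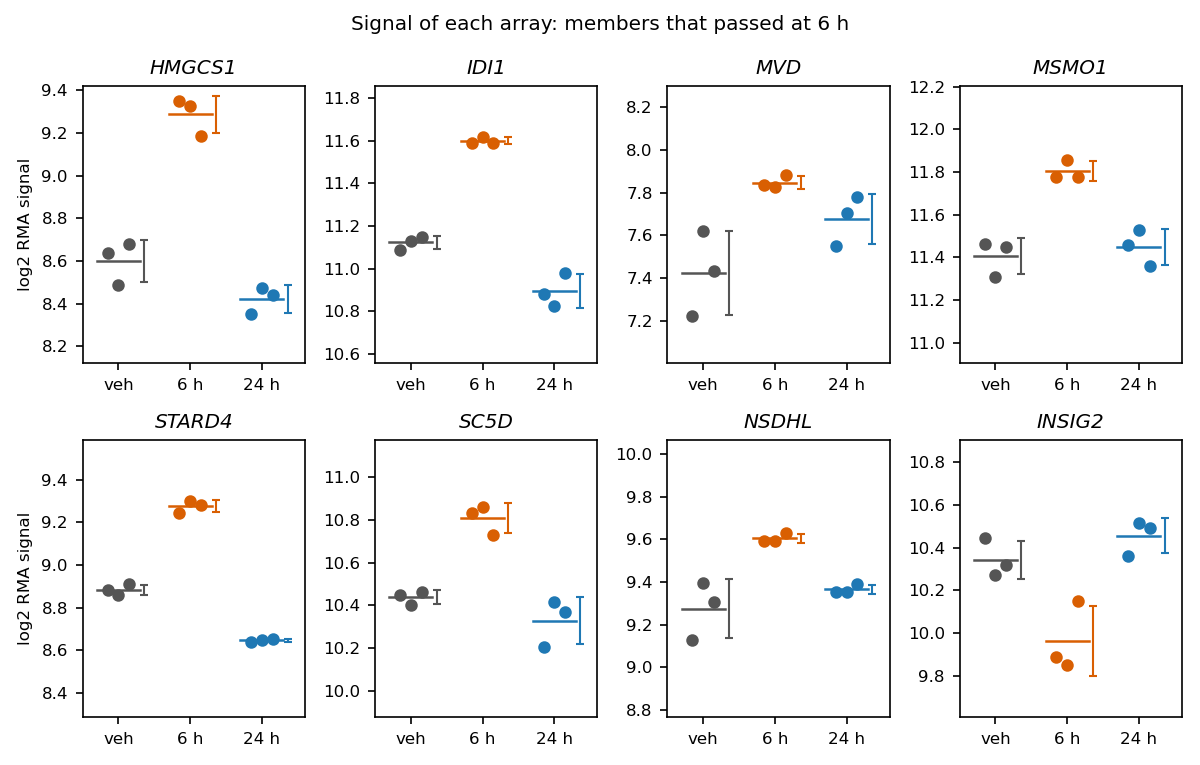
Log2 RMA signal of each array for the 8 genes that passed at 6 h, in vehicle (grey), 6 h (orange) and 24 h (blue); horizontal lines are group means, bars beside them are SDs (n = 3 arrays), and each panel has its own level but the same span. In every panel the 6 h arrays are apart from the vehicle and 24 h arrays, above them in 7 panels and below them for INSIG2.

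The promoters of these genes were searched for short motifs. The choice of genes did not use the motif letters, but it did use their known place in the SREBP pathway. The motif shares are therefore not independent of that choice. RefSeq promoters (GRCh38.p14) were found for 28 of the 32 genes, and the 250 bases upstream of the annotated start were searched on both strands. CCAAT, the box bound by NF-Y, which works beside SREBPs at many sterol genes, was in 19 of these 28 (67.9%), against 34.1% of 15384 tested genes with a promoter and 33% of all 27305 promoters. Of the 7 genes that rose, 6 held it, IDI1 being the exception. The SP1 box GGGCGG was in 24 of 28 (85.7%), against 56.3% of tested genes, and also in 6 of the 7 genes that rose, all but NSDHL. TCACNCCAC, a form of the sterol regulatory element, was in the SREBF2 promoter alone (3.57% of the members, 0.832% of tested genes). The E-box TCACGTGA was in that of INSIG1 alone (1.27% of tested genes). AGGTCA, the nuclear receptor half-site, was in 0 of 28 and in 10.1% of tested genes. A match is a run of letters and not a measured site. Only these exact letters were searched, in 1 promoter per gene, so variant or more distant sites would be missed.

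The 4 genes that rose with the smallest adjusted p, HMGCS1, IDI1, STARD4 and MSMO1, are shown with INSIG2, which fell, and SREBF2, which holds the sterol regulatory element letters. Each is read 5′ to 3′ on the strand of the gene and ends at the base before the start. Capitals mark CCAAT or its reverse complement ATTGG, and in SREBF2 also TCACNCCAC. The positions are HMGCS1 at chr5:43313413-43313662 (minus strand), IDI1 at chr10:1056705-1056954 (minus), STARD4 at chr5:111512536-111512785 (minus), MSMO1 at chr4:165327419-165327668 (plus), INSIG2 at chr2:118088221-118088470 (plus) and SREBF2 at chr22:41832855-41833104 (plus).
HMGCS1: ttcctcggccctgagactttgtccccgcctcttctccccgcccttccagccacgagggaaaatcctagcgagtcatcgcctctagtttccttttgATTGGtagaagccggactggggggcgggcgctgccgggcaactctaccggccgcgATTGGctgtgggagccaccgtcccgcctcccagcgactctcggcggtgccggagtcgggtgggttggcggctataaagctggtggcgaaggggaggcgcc
IDI1: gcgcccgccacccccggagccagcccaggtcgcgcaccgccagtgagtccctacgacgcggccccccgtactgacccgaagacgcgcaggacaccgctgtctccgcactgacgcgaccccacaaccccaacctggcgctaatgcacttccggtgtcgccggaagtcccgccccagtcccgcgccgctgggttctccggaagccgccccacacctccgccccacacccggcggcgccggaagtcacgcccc
STARD4: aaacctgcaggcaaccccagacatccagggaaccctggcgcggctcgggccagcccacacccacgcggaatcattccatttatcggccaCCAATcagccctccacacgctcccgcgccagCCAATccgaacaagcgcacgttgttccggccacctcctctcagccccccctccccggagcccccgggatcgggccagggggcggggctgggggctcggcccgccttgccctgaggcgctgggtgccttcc
MSMO1: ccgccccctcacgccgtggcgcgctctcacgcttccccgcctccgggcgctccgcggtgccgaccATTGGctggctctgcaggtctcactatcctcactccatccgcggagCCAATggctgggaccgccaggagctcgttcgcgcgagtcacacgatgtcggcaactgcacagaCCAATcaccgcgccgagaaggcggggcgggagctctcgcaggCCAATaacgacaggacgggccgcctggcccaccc
INSIG2: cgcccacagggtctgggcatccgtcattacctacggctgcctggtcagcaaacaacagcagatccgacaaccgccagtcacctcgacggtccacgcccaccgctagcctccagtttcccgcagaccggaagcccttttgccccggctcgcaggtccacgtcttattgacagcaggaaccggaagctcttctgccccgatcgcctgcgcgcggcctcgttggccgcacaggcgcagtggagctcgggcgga
SREBF2: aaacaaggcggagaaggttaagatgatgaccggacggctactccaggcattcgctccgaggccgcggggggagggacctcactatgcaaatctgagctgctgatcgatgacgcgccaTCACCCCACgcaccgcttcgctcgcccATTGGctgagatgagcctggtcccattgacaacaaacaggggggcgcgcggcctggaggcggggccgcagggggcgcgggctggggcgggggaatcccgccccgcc
MSMO1 holds 4 CCAAT boxes in this window, HMGCS1 and STARD4 hold 2 each, SREBF2 holds 1, and IDI1 and INSIG2 hold 0.

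STARD4, a small carrier that moves cholesterol between membranes, showed the tightest groups. Its signal was 8.88, 8.86 and 8.91 in vehicle, 9.25, 9.30 and 9.28 at 6 h, and 8.64, 8.65 and 8.65 at 24 h. The 3 groups lay apart, highest at 6 h and lowest at 24 h, with SDs of 0.0080 to 0.028. STARD4 rose 1.31-fold at 6 h (95% confidence interval 1.22 to 1.42; adjusted p = 0.00167) and fell 1.18-fold at 24 h (1.09 to 1.27; adjusted p = 0.0133). Both calls held with each array left out in turn.

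The other transport and uptake genes did not pass at 6 h or 24 h. NPC1 and NPC2 pass cholesterol out of lysosomes. NPC1 signals were 9.98, 10.02 and 9.99 in vehicle, 10.01, 9.93 and 10.07 at 6 h, and 10.15, 10.12 and 10.04 at 24 h. Its change was 0.012 ± 0.057 at 6 h (95% confidence interval -0.11 to 0.14) and 0.11 ± 0.06 at 24 h (-0.01 to 0.24). NPC2 changed by -0.10 ± 0.05 and 0.060 ± 0.053, and NPC1L1, which takes up sterols at the cell surface, by 0.0046 ± 0.0617 and 0.035 ± 0.062.

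MYLIP, a ubiquitin ligase that sends lipoprotein receptors to lysosomes and a known target of the oxysterol receptors LXR, had signals of 7.40, 7.20 and 7.36 in vehicle. They were 7.19, 7.01 and 7.28 at 6 h and 7.48, 7.36 and 7.46 at 24 h, so the vehicle arrays overlapped with both treated groups. Neither change against vehicle passed (-0.16 ± 0.08 and 0.12 ± 0.08). SOAT1 and SOAT2, which esterify cholesterol for storage, did not pass at either time on their reported probe sets. SOAT2 changed by -0.19 ± 0.08 at 6 h and -0.016 ± 0.083 at 24 h. SOAT1 changed by -0.091 ± 0.131 and 0.11 ± 0.13, with the widest standard error of the 30 genes (SD of its arrays 0.22, 0.12 and 0.25).

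Of the 5 genes that control SREBP activity, INSIG2 fell at 6 h and 4 did not pass. INSIG2 signals were 10.44, 10.27 and 10.32 in vehicle, 9.89, 9.85 and 10.15 at 6 h, and 10.36, 10.51 and 10.49 at 24 h. The 6 h arrays lay below both other groups, with 6 h replicate 3 nearest to them. The change at 6 h was -0.38 ± 0.09 (adjusted p = 0.0369), and it was lost on removal of any vehicle array, either of 6 h replicates 1 and 2, or 24 h replicate 3 (up to 0.161). It also missed when the 24 h arrays were kept out of the fit (0.0750), with the replicate number as a block (0.0574) and with adjustment over all probe sets (0.0534).

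INSIG1, a textbook SREBP target that feeds back on it, had signals of 5.03, 4.71 and 5.10 in vehicle, 4.99, 5.15 and 5.01 at 6 h, and 5.01, 4.94 and 5.04 at 24 h. The groups overlapped, and the changes were 0.11 ± 0.09 (95% confidence interval -0.10 to 0.31) and 0.051 ± 0.093 (-0.15 to 0.26). Its 3 probe sets had mean signals of 3.23 to 5.00, all under the median probe set of every array, and detection calls were not used here. SCAP, the escort of SREBPs, had 9.72, 9.84 and 9.86 in vehicle, 9.72, 9.63 and 9.72 at 6 h, and 9.74, 9.78 and 9.74 at 24 h. Its changes were -0.12 ± 0.06 and -0.054 ± 0.057, and neither passed.

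SREBF2 encodes the SREBP that mainly drives cholesterol genes. Its signal was 8.37, 8.60 and 8.43 in vehicle, 8.41, 8.51 and 8.59 at 6 h, and 8.82, 8.76 and 8.77 at 24 h. Vehicle and 6 h overlapped, and 24 h lay above both. SREBF2 changed by 0.035 ± 0.073 at 6 h (adjusted p = 0.859) and rose 1.25-fold at 24 h (95% confidence interval 1.12 to 1.39; adjusted p = 0.0212). The rise was lost on removal of vehicle replicate 1, vehicle replicate 3 or any single 24 h array (up to 0.0758), and its other 2 probe sets changed by 0.064 and 0.050 at 24 h. The mean of all 3 changed by 0.14 (0.106). SREBF1 encodes the SREBPs that lean towards fatty acid genes. Its signal was 8.81, 9.01 and 8.88 in vehicle, 8.84, 8.80 and 8.87 at 6 h, and 9.07, 9.01 and 9.17 at 24 h. Its changes of -0.067 ± 0.066 and 0.18 ± 0.07 did not pass (adjusted p = 0.681 and 0.132).

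**Figure D3:**
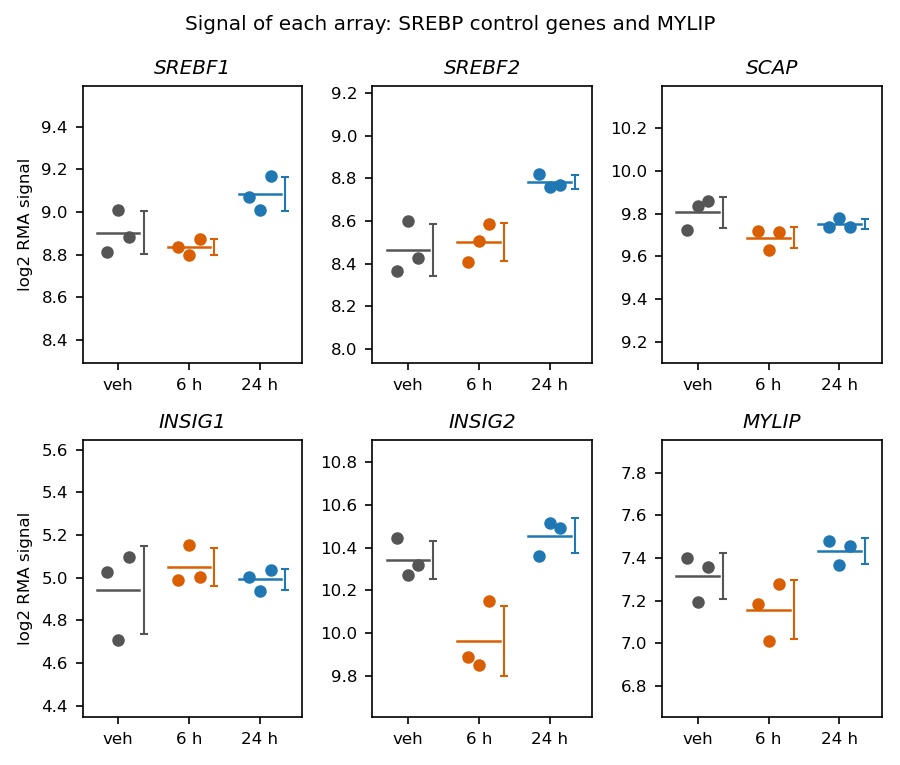
Log2 RMA signal of each array for the 5 SREBP control genes and MYLIP, in vehicle (grey), 6 h (orange) and 24 h (blue); horizontal lines are group means and bars are SDs (n = 3 arrays). INSIG2 is lowest at 6 h (9.85 to 10.15), SREBF2 is highest at 24 h (8.76 to 8.82), and the INSIG1 groups overlap.

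After 24 h of GW7647, 3 of the 30 genes passed against vehicle: SREBF2 rose, and IDI1 and STARD4 fell. That is 10.0% of the members, against 8.17% of all genes, so the share was near the background. Among genes above the median signal, 6 of 29 members passed, against 2343 of 9887 genes. The single rise is 3.33% of members against 5.38% of all genes, and the 2 falls are 6.67% against 2.80%. Arrays at 24 h lay entirely above vehicle for 6 of the 30 genes and entirely below for 3, against 14.0% and 8.95% of all genes (23.0% in either direction). FDPS (0.22 ± 0.07, adjusted p = 0.0716) and LBR (0.23 ± 0.07, adjusted p = 0.0535), a nuclear membrane sterol reductase, came close to the threshold. Both passed among genes above the median signal and with an intensity trend in the model. ACAT2 (0.14 ± 0.05, adjusted p = 0.123) also passed in those settings (0.0378 and 0.0257). The median log2 change of the 18 enzymes was 0.051, and 1 of them fell while 17 did not pass. At an unadjusted p under 0.05 by limma, 9 of the 30 genes differed from vehicle at 24 h and 12 at 6 h. Over all 19775 genes, 4198 did so at 24 h and 3227 at 6 h. The count of 3 became 1 when vehicle replicate 1 or 3, or 24 h replicate 2, was removed.

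The times were then compared directly, with 24 h against 6 h. This comparison shares the 6 h arrays with the one at 6 h, so they are not independent. Of the 30 genes, 6 fell, 4 rose and 20 did not pass. That is 33.3% of the members, against 13.8% of all genes, with falls in 20.0% of members and 4.57% of all genes and rises in 13.3% and 9.23%. Scaling moved this split: 9 fell and 1 rose after quantile normalization, and 5 fell and 6 rose with each array centred on its median. Over all genes, 1826 rose and 903 fell, against 1431 and 1244 after quantile normalization and 2175 and 653 after centring. Among genes above the median signal, 14 of 29 members passed, against 3407 of 9887 genes.

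HMGCS1 was 1.82-fold lower at 24 h than at 6 h (95% confidence interval 1.64 to 2.03; adjusted p = 3.09e-05), IDI1 1.63-fold (1.50 to 1.77; 2.92e-05) and STARD4 1.55-fold (1.44 to 1.67; 2.61e-05). SC5D was 1.39-fold lower (1.26 to 1.54; 0.000847), MSMO1 1.28-fold (1.16 to 1.41; 0.00454) and NSDHL 1.18-fold (1.06 to 1.31; 0.0384). MVD, the remaining gene that rose at 6 h, changed by -0.17 ± 0.09 between the times (adjusted p = 0.293). In 11 of the 18 enzymes all 24 h arrays lay below all 6 h arrays, as in 13.8% of all genes. Over the 30 genes, 12 had arrays entirely higher and 12 entirely lower, against 19.2% and 13.8% of all genes (33.0% in either direction).

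INSIG2 was 1.41-fold higher at 24 h than at 6 h (95% confidence interval 1.24 to 1.60; adjusted p = 0.00313). SREBF2 was 1.22-fold higher (1.09 to 1.36; 0.0239), MYLIP 1.21-fold (1.07 to 1.37; 0.0427) and SREBF1 1.19-fold (1.07 to 1.32; 0.0296). The calls of HMGCS1, IDI1, STARD4, SC5D, MSMO1 and INSIG2 held with each array left out in turn. For SC5D only the reported probe set passed. The IDI1 probe sets differed in direction. An unreported one, whose name also ends in _x_at, changed by -0.73 (adjusted p = 9.04e-05 over all probe sets). The others changed by 0.36 (0.0139) and 0.36 (0.0945). With probe sets averaged, IDI1 changed by -0.18 (adjusted p = 0.0590). Without probe sets of shared probes, IDI1 changed by 0.36 (0.0845) and SC5D by -0.23 (0.216). NSDHL did not pass without any 1 of the 6 h or 24 h arrays (up to 0.115), and SREBF1 without any 6 h array or 24 h replicate 1 or 3 (up to 0.112). SREBF2 did not without 6 h replicate 1 or 2 or any 24 h array (up to 0.101), nor MYLIP once vehicle replicate 3, 6 h replicate 1, 6 h replicate 2 or any 24 h array was removed (up to 0.170). After quantile normalization SREBF1 (0.0999), SREBF2 (0.0683) and MYLIP (0.0710) did not pass. The same 3 genes did not pass with probe sets averaged, at 0.18 for SREBF1 (0.0621), 0.11 for SREBF2 (0.166) and 0.15 for MYLIP (0.0800). Without shared probes SREBF2 changed by 0.099 (0.343) and MYLIP by 0.032 (0.855). NSDHL did not pass with each array centred on its median (0.0750), but its unreported probe set fell by 0.25 (adjusted p = 0.0206 over all probe sets). The count of 10 became 6 without 6 h replicate 1, 6 h replicate 2 or 24 h replicate 3. Some alternatives added calls. With probe sets averaged, SQLE fell (-0.34, adjusted p = 0.00958). In that fit LBR (0.21, 0.0473) and NPC2 (0.16, 0.0472) also passed as rises. Each of these has only 1 probe set, so its change was as before and only its adjusted p moved. LSS fell after quantile normalization (-0.21, 0.0258). An unreported EBP probe set rose by 0.24 (0.0369 over all probe sets).

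Of the 30 genes, 17 had several probe sets and 13 had 1, for 66 probe sets in all. For MVK, SQLE, DHCR7, NSDHL, INSIG1, NPC1L1 and HMGCS1, every probe set had a positive change at 6 h. For IDI1 and SC5D the probe sets differed in direction at 6 h, as they did for GGPS1, LSS, EBP, SREBF2, MYLIP and NPC1, where none passed. For SOAT1 an unreported probe set with a mean signal of 7.38 fell by 0.39 log2 units at 6 h and by 0.36 at 24 h (adjusted p = 0.0124 and 0.00839 over all probe sets), while the reported one did not pass.

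**Figure D4:**
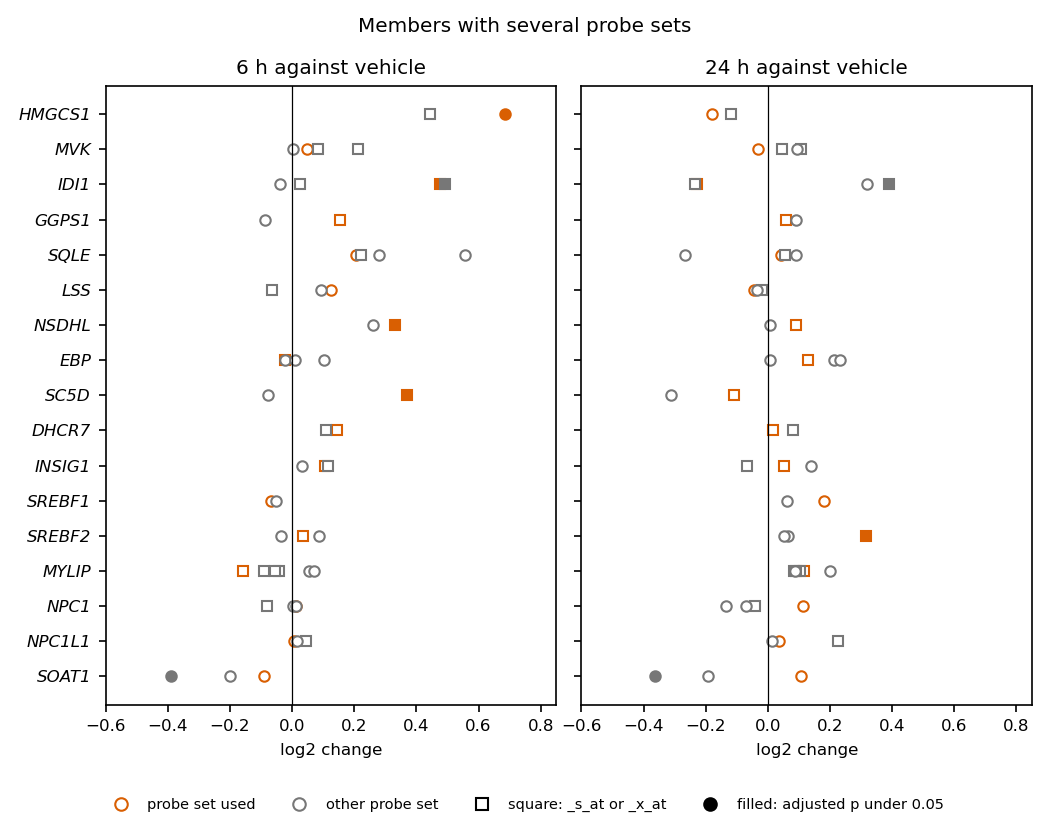
Log2 change of every probe set of the 17 genes with several, at 6 h (left) and 24 h (right) against vehicle; orange marks the reported probe set, grey the others, squares mark names ending in _s_at or _x_at, and filled symbols passed over all probe sets. HMGCS1 has both probe sets to the right of 0 at 6 h, IDI1 splits into a pair near 0.49 and a pair near 0, and SOAT1 has 1 filled grey point at -0.39.

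Further genes around the pathway were read from 4 lists. Of 12 measured genes that process SREBPs or degrade sterol sensors, 2 rose at 6 h and 1 at 24 h, and 0 fell at either time. The rises are 16.7% at 6 h against 1.64% of all genes, and 8.33% at 24 h against 5.38%, which is near the background. Their median change was 0.043 and 0.099. SPRING1, which helps the protease that cuts SREBPs to mature, rose by 0.41 ± 0.06 (adjusted p = 0.00263) at 6 h and by 0.54 ± 0.06 (0.000215) at 24 h. Averaged over its probe sets, these changes were 0.25 and 0.24. TMEM97, a sterol-responsive membrane protein, rose by 0.22 ± 0.05 at 6 h (0.0419), a call that did not hold without any single array. MBTPS1, that protease, rose from 6 h to 24 h (0.25 ± 0.06, adjusted p = 0.0174), but not with any single 6 h array or 24 h replicate 3 removed (up to 0.0683) or after quantile normalization (0.0750).

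Of 14 measured SREBP targets of fatty acid synthesis and NADPH supply, 1 rose at 6 h and 0 fell, which is 7.14% against 3.54% of all genes. It was LPIN1, a phosphatidate phosphatase, which rose by 0.35 ± 0.06 (adjusted p = 0.0110) and fell by 0.44 from 6 h to 24 h (0.000870). The rise at 6 h did not pass without 6 h replicate 1 or 3 (up to 0.0582). The median change of the 14 genes was 0.036 at 6 h and -0.015 at 24 h. MID1IP1, which activates the carboxylase, rose at 24 h (0.33 ± 0.06, adjusted p = 0.00415), as the 1 of 14 to pass then (7.14% against 8.17% of all genes, near the background). From 6 h to 24 h, 2 of the 14 rose and 2 fell (28.6% against 13.8%).

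Of 17 measured genes of sterol transport, efflux and oxysterols, 1 rose and 0 fell at 6 h, and 3 rose and 1 fell at 24 h. That is 5.88% against 3.54% of all genes at 6 h and 23.5% against 8.17% at 24 h. From 6 h to 24 h, 6 rose and 1 fell (41.2% against 13.8%). Their median change was -0.055 at 6 h, 0.017 at 24 h and 0.059 between the times. GRAMD1A, which carries cholesterol from the plasma membrane inward, rose by 0.36 ± 0.09 at 6 h (adjusted p = 0.0461) and by 0.81 ± 0.09 at 24 h (0.000287; 0.52 with its probe sets averaged). The rise at 6 h passed with vehicle replicate 2 left out and not without any other single array (up to 0.156). The lipoprotein receptor VLDLR rose by 1.00 ± 0.09 at 24 h (6.87e-05) and had -0.015 ± 0.088 at 6 h. NR1H3, which encodes an LXR, rose by 0.39 ± 0.10 at 24 h (0.0375), a call that held with vehicle replicate 2 left out and with no other single array left out (up to 0.118). LIPA, the lysosomal acid lipase, fell by 0.34 at 24 h (0.00504), or by 0.19 with its probe sets averaged (0.0503). Of 12 measured genes of isoprenoid branches, 0 passed at 6 h by limma (1 at an unadjusted p under 0.05, against 3227 of 19775 genes). At 24 h 1 of them (COQ2, of ubiquinone synthesis) passed, and 2 (PDSS2 by 0.35 and COQ2 by 0.31) rose from 6 h to 24 h. Averaged over probe sets these were 0.094 and 0.060, and COQ2 did not pass without 6 h replicate 2. These shares, 8.33% at 24 h and 16.7% between the times, are near those of all genes (8.17% and 13.8%). The median change of the 12 was 0.011 at 6 h and at 24 h. COQ2 rose by 0.27 ± 0.07 at 24 h (0.0363), or 0.064 with its probe sets averaged (0.681), and did not pass without any vehicle array, 6 h replicate 3, or either of 24 h replicates 1 and 2 (up to 0.123).

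With 1 array left out, the 8 genes that passed at 6 h became 4 when either of 6 h replicates 1 and 2 was removed, and 5 when vehicle replicate 1 or 3 was. HMGCS1, IDI1, MSMO1 and STARD4 passed in all 9 of these fits, with log2 changes of 0.63 to 0.74, 0.46 to 0.49, 0.35 to 0.43 and 0.38 to 0.41.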

How the data were processed

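The values were the deposited log2 signals of 54675 probe sets on 9 arrays. Per the submitters' processing notes they come from RMA, which corrects background, normalizes between arrays and summarises probe sets; the sources used here name no version, software or chip definition. After controls and probe sets with several symbols or none were left out, 41091 remained, and the one with the highest mean stood for each of 19775 genes, with no filter on signal. Group means over all 9 arrays were fitted with limma 3.58.1 in R 4.3.3 (6 residual degrees of freedom), two-sided, with Benjamini-Hochberg adjustment over all genes in each of 3 comparisons. The script was tested on simulated data with changes put in at 6 h. It called 38.8% of changes of 0.3 log2 units, 79.1% of those of 0.5 and 100% of those of 1. A gene that did not pass may therefore still have changed by a small amount. With 3 arrays in each group, an exact permutation test could not reach a p below 0.10. Arrays give no counts, and their number limits the precision. Genes, lists and tests were chosen with earlier results of these data known. Named genes are the members, and from each other list at most 4 that passed. CD14, TTR and FGB were named after their values were seen. Alternatives changed the probe set rule, normalization, variance model, filter, samples and threshold, one at a time. Promoters are from RefSeq (GRCh38.p14).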

Additional observations from a re-analysis of the deposited data

Results flagged for a closer look

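The change at 24 h differed from the change at 6 h, by the limma test of 24 h against 6 h, for 10 genes. The log2 difference was -0.87 for HMGCS1, -0.70 for IDI1, -0.63 for STARD4, -0.48 for SC5D, -0.36 for MSMO1 and -0.24 for NSDHL. It was 0.49 for INSIG2, 0.28 for SREBF2, 0.28 for MYLIP and 0.25 for SREBF1. Some unreported probe sets passed against vehicle over all probe sets: IDI1 had 0.49 at 6 h on one and 0.39 at 24 h on another, and SOAT1 had -0.39 at 6 h and -0.36 at 24 h on the same one.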

How the results depend on the processing

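With the third group kept out of each fit, 454 genes passed at 6 h and 921 at 24 h, and 5 members at 6 h. Without shared probes, 454 genes passed at 6 h and 1774 between the times, and 5 members at 6 h and 1 at 24 h; of the members, 24 then had a probe set. There IDI1 changed by -0.038 at 6 h, 0.32 at 24 h and 0.36 between the times, and SC5D by -0.078 at 6 h. With probe sets averaged, IDI1 changed by 0.061 at 24 h. An intensity trend gave 1104 genes at 6 h and 6 members at 24 h. The genes above the median signal gave 1206 of 9887 genes at 6 h and 6 of 29 members at 24 h. At an adjusted p under 0.01, 234, 695 and 1328 genes passed at 6 h, 24 h and between the times, and 4, 0 and 6 members. By limma, 9 members at 24 h had an unadjusted p under 0.05, against 4198 of all 19775 genes. Leaving out each array in turn gave 261 to 637, 1005 to 1664 and 1519 to 3082 genes, and 4 to 8, 1 to 4 and 6 to 13 members. The cause of these shifts was not tested, beyond the fewer genes, samples or calls that each setting allows. Arrays with the same replicate number did not deviate together (r = -0.20 to 0.086 over 9 pairs), and 1 of 9 arrays correlated best with its own number. With the replicate number as a block, 427 genes passed at 6 h. The members then numbered 7, 2 and 8, against 8, 3 and 10, as INSIG2 at 6 h (adjusted p = 0.0574), IDI1 at 24 h (0.0635), and NSDHL (0.0544) and SREBF1 (0.0543) between the times did not pass.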
